A study of Drosophila melanogaster with 2 samples.

Results

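The 6 genes described here encode channel proteins that let calcium or sodium into excitable cells of Drosophila melanogaster: Ca-alpha1T, Ca-alpha1D, cac, stj, para and na. They were taken by gene symbol from the Ensembl annotation and are 6 of 13968 protein-coding genes on the 7 chromosome arms. Their ranked ChIP-seq peaks, with a summit inside the gene span or within 2 kb of it, numbered 233 of 142438. The series measured where Lim3, a LIM-homeodomain protein that helps to specify motor neurons, was found on chromatin. Transgenic flies made a Lim3-eGFP fusion, and an antibody against GFP was used for the precipitation from sonicated chromatin of whole embryos aged 8 to 24 h. Both libraries are biological replicates of this 1 group, so the design holds no comparison between conditions, and no control library was analysed here. Chromatin of whole embryos mixes every cell type, and neurons are only some of those cells, so a weak peak can come from few cells or from weak binding in many, which cannot be told apart.

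Voltage-gated calcium and sodium channels open when the membrane depolarizes. Calcium channels then trigger transmitter release, shape the firing of neurons and drive the contraction of larval muscle, and sodium channels carry the action potential. A pore-forming alpha subunit makes the channel, and auxiliary subunits set how much of it reaches the membrane. In Drosophila, Ca-alpha1T, Ca-alpha1D and cac are the alpha1 subunits of the T-type, L-type and Cav2-type calcium channels. The gene stj encodes an auxiliary alpha2delta subunit, para is the sodium channel of the action potential, and na encodes a sodium leak channel related to the voltage-gated ones but not itself opened by depolarization in the same way.

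Ca-alpha1T was the 1 gene of the 6 with a Lim3 peak that passed the authors' reproducibility threshold. For both libraries together, 13.1% of all protein-coding genes had such a peak, as did 29.2% of the 1801 genes at least as long as na. The Ca-alpha1T peak lay 904 bp upstream of the start of the gene, between genes, and was present in the thresholded lists of both replicates. At Ca-alpha1D, cac, stj, para and na, ranked peaks were found, but none of them met a thresholded peak. The strongest of these lay at a promoter for stj, para and cac, in coding sequence for Ca-alpha1D and in an intron for na.

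The sequence under the Ca-alpha1T peak is given first because it is the 1 thresholded site at these genes. The windows under the strongest ranked peaks of Ca-alpha1D and na follow as windows that met no thresholded peak. Each is 200 bases of the plus strand of dm6 (RefSeq release 6 genome) centred on the summit, read from chrX:6193287-6193486, chr2L:16170802-16171001 and chrX:14273951-14274150. Capitals mark the words found among 10 that were searched on both strands. The homeodomain core ATTA reads as TAAT on the other strand, and the longer homeodomain words were TAATTA, which is its own reverse complement and holds the core on both strands, along with the related word TAATTG, which holds it once. The word ACAGTG has as its reverse complement the letters CACTGT. The others were CAGCTG (an E-box word), then GAGAG (the word of GAGA factor), then TGATAA (the word of GATA factors), then CAGGTAG (the word of Zelda), then TATCGATA (the word of DREF) and lastly GTCACACT (a core promoter word).
Ca-alpha1T: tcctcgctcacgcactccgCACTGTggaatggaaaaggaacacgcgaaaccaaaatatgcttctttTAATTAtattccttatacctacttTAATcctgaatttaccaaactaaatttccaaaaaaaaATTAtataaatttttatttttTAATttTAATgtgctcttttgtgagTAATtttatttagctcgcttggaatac
Ca-alpha1D: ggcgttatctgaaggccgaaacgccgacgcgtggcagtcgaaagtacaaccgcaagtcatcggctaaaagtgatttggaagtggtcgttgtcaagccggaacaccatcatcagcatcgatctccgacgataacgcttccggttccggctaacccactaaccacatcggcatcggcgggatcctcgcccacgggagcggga
na: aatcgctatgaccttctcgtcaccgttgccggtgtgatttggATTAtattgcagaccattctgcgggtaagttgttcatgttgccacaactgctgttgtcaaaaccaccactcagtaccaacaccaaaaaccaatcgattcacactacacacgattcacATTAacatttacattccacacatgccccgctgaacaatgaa

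The Ca-alpha1T window had 30.0% GC. It held ACAGTG at base 20 on the minus strand. It also held TAATTA at base 67, with 7 cores of the form ATTA in all when both strands were counted. As many cores stood in 12.6% of the windows under thresholded peaks and in 2.94% of those under all ranked peaks. A GC content as low was found in 18.3% of thresholded windows and 2.42% of ranked windows. The part of the low GC content in the core count was not tested. The Ca-alpha1D window had 57.5% GC and held none of the 10 words. The na window had 44.0% GC and held ATTA at bases 43 and 160. Of the windows searched but not printed, that under the strongest stj peak held the core ATTA together with ACAGTG and the word GAGAG, that of cac held GAGAG, and that of para held none of the words. A word found is a description of the sequence, not evidence of a bound site.

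A ranked list holds every candidate peak in order, and a thresholded list holds peaks whose irreproducible discovery rate (IDR), the expected share of irreproducible peaks, is 0.01 or less, which is a −log10 IDR of 2 or more. Not every ranked peak past that limit met a thresholded peak: the larger list lacked 124 of them, the conservative one 47, that of replicate 1 lacked 160 and that of replicate 2 lacked 22, for a reason the sources do not state. None of these 124 lay at the 6 genes, where the highest −log10 IDR of an unlisted peak was 0.962. The place of a peak is its order by signal within 1 list, with place 1 the strongest. The signal is the authors' own value, on a scale that belongs to each list and that the sources used here do not give. The ranked lists held 142438 peaks for both libraries together, 104680 for replicate 1 and 113860 for replicate 2. The thresholded lists held 1500 peaks (the larger list, both libraries), 966 (the conservative list, both libraries), 881 (replicate 1) and 927 (replicate 2). A ranked peak is called listed where it overlapped a thresholded peak by at least 1 bp. Read depth is unknown.

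The Ca-alpha1T gene (FBgn0264386) spans chrX:6104085-6192483 on the minus strand and is the longest of the 6, at 88.4 kb. Its listed peak covered chrX:6193222-6193551 with the summit at 6193387, in the intergenic stretch of 2253 bp before CG32750, a neighbour on the same strand. The summit was 904 bp from the single annotated start of Ca-alpha1T, 1350 bp from the 3′ end of CG32750 and 3052 bp from the start of CG32750. In both libraries together the peak had a signal of 126 at place 435 and a −log10 IDR of 3.40. In replicate 1 it had a signal of 55.0 at place 666 with a −log10 IDR of 2.69. In replicate 2 it had a signal of 73.0 at place 356 with a −log10 IDR of 3.35. The peak was past the limit in each library, and the replicates' summits were 1 bp apart. It was also in the conservative list, at place 403 of that ranking with a −log10 IDR of 3.13. Ordered by signal within the larger list it stood at place 414 of 1500, and the median signal there was 89.9.

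The members held 1 listed peak in every list. Of the 233 ranked peaks at the channel genes, 1 (0.429%) met the larger list, against 1.12% of all ranked peaks. The same peak was the only 1 to meet the conservative list, the replicate 1 list and the replicate 2 list, where the shares over all ranked peaks were 0.712%, 0.655% and 0.666%. A count of 1 peak is too small to read the members' share as lower than these. By gene, 1 of the 6 had a peak of the larger list within 2 kb, against 13.1% of all protein-coding genes and 29.2% of the 1801 genes at least as long as na. The corresponding shares of all protein-coding genes were 9.57% for the conservative list, 8.13% for replicate 1, 8.73% for replicate 2 and 5.48% for 1 peak that met both replicates' lists. With 6 genes, a count of 1 stands near these backgrounds and is read as no more than the presence of a peak at Ca-alpha1T.

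**Figure D1:**
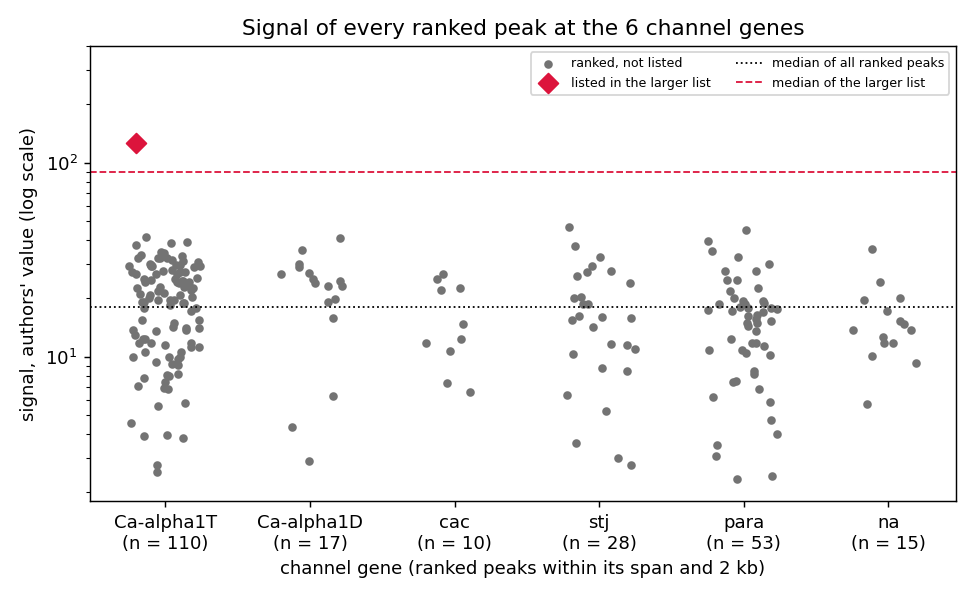
Signal of each ranked peak of both libraries together (vertical axis, log scale, authors' value) at the 6 channel genes (horizontal axis, with the number of peaks). The diamond is the listed peak of Ca-alpha1T at 126, above the median of the larger list (dashed, 89.9), and the other 232 peaks (grey points) all lie at 46.4 or below, around the median of all ranked peaks (dotted, 18.0). Sideways spread of the points only separates them.

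Among the ranked peaks of Ca-alpha1T and its flanks, the listed peak stood well apart from the rest in signal. The other ranked peaks of the gene, in all 110 counting the listed one, had signals of 41.4 or less. The next strongest lay in an intron 9270 bp downstream of the start, at place 6929, with a −log10 IDR of 0.149, a replicate 1 signal of 20.6 (place 11238) and no overlapping replicate 2 peak. The 2 after it had signals of 39.1 (place 8874) and 38.7 (place 9264), both in introns. A separate ranked peak sat 11 bp downstream of the start itself, with a signal of 32.2 at place 19541 and a −log10 IDR of 0.111. The start of the gene was thus marked far more weakly than the site 904 bp upstream. Of the 110 peaks, 83 had summits in introns, 19 in coding sequence, 4 in 3′ UTRs, 3 between genes and 1 at the promoter. Nep1, a neprilysin gene, overlies the downstream flank and held 3 of the summits.

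**Figure D2:**
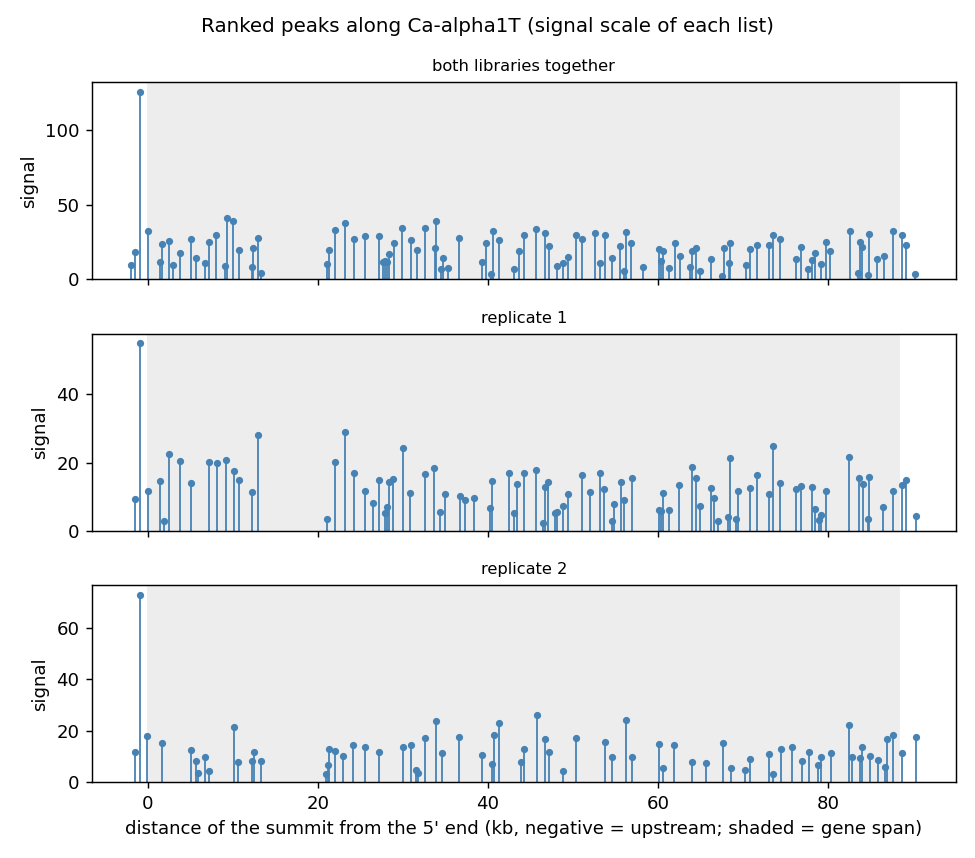
Ranked peaks along Ca-alpha1T in both libraries together, replicate 1 and replicate 2 (top to bottom). The horizontal axis is the distance of the summit from the 5′ end in kb, with the gene span shaded and upstream negative, and the vertical axis is the signal on the scale of each list. The tallest peak is upstream of the gene in all 3 panels, at 126, 55.0 and 73.0, and a stretch of 7.79 kb between 13.3 and 21.1 kb holds no peak of both libraries.

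Ca-alpha1D (FBgn0001991, chr2L:16165831-16190540, plus strand, 24.7 kb) had 17 ranked peaks and 2 annotated starts. Its strongest peak, in coding sequence at chr2L:16170737-16171066, had a signal of 41.1 at place 7157 and a −log10 IDR of 0.291. The overlapping peak of replicate 1 had a signal of 20.3 at place 12129, and that of replicate 2 a signal of 17.6 at place 26039. The summit lay 2556 bp downstream of the nearer start and 5071 bp from the 5′ end. No ranked peak lay within 500 bp of either start, which was not so for any other of the 6 genes. The second peak, in coding sequence 23700 bp from the 5′ end, had a lower signal, 35.5, but a higher −log10 IDR, 0.779. Both values are far below the limit of 2.

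The gene cac (FBgn0263111, chrX:11931280-11985087, minus strand, 53.8 kb) encodes the calcium channel of presynaptic terminals and carried the fewest peaks. Only 3 of its 10 ranked peaks lay within the gene. The other 7 lay in the flanks, 3 in gd, a serine protease gene of the embryonic axis, and 4 in Pdzd8, and so belong as much to those neighbours. The strongest, 80 bp upstream of the start used by 16 of 18 transcripts, had a signal of 26.6 at place 34745 and a −log10 IDR of 0.144. The replicates differed at that promoter, with a signal of 19.8 at place 13315 in replicate 1 and 8.01 at place 84223 in replicate 2. The second, in coding sequence 35175 bp from the 5′ end, had a signal of 25.3 at place 39491, with no replicate 1 peak and a replicate 2 signal of 16.7 at place 30128. Between these peaks lay 34.1 kb of the gene without a ranked peak of both libraries.

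The gene stj (FBgn0261041, chr2R:13805794-13819571, plus strand, 13.8 kb) had 28 ranked peaks. Its strongest lay 94 bp downstream of 1 of its 2 starts, with a signal of 46.4, the highest unlisted signal at the 6 genes, at place 4217 and a −log10 IDR of 0.695. In replicate 1 that peak had a signal of 32.9 at place 1793 and a −log10 IDR of 0.886, and in replicate 2 a signal of 19.2 at place 19945. The promoter peak was therefore among the top 1.71% of the replicate 1 ranking and no higher than the top 17.5% in replicate 2. The second, with a signal of 37.2 at place 11009, lay in coding sequence of the cuticle protein gene Cpr50Cb upstream. In all, 8 of the 28 summits lay in a neighbour, 3 in Cpr50Cb and 5 in fl(2)d, an RNA-methylation and splicing gene downstream.

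The sodium channel gene para (FBgn0285944, chrX:16455027-16533096, minus strand, 78.1 kb) had 53 ranked peaks and 60 annotated transcripts. Its strongest peak sat 13 bp upstream of the start shared by 58 of those transcripts, with a signal of 45.2 at place 4723. The −log10 IDR there, 0.962, was the highest of any unlisted peak at the 6 genes. In replicate 1 the overlapping peak had a signal of 17.9 at place 18840, and in replicate 2 a signal of 26.1 at place 6057. The second peak, in an intron, had a signal of 39.5 at place 8505 with a −log10 IDR of 0.606. In replicate 1 it had a signal of 18.3 at place 17647, slightly above the promoter peak, and in replicate 2 a signal of 15.6 at place 35485, below it. Cnx14D, a calnexin gene nested in para on the same strand, held 4 of the 53 summits.

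The sodium leak channel gene na (FBgn0002917, chrX:14266367-14277416, plus strand, 11.1 kb) had 15 ranked peaks. The strongest, in an intron 7684 bp downstream of its single start, had a signal of 35.9 at place 12742 and a −log10 IDR of 0.113. The replicates placed it far apart, with a signal of 10.9 at place 55377 in replicate 1 and 25.3 at place 6858 in replicate 2. Its promoter peak, 415 bp downstream of the start, had a signal of 14.8 at place 86978, below the median of all ranked peaks. Of the 15 summits, 11 lay in coding sequence, the largest such share among the 6 genes at 73.3%. However, 3 of the 15 lay in neighbours and not in na. Those in Muc12Ea and CG13404 are among the 11 in coding sequence, and the one in Tat and CG46317 was intronic.

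**Figure D3:**
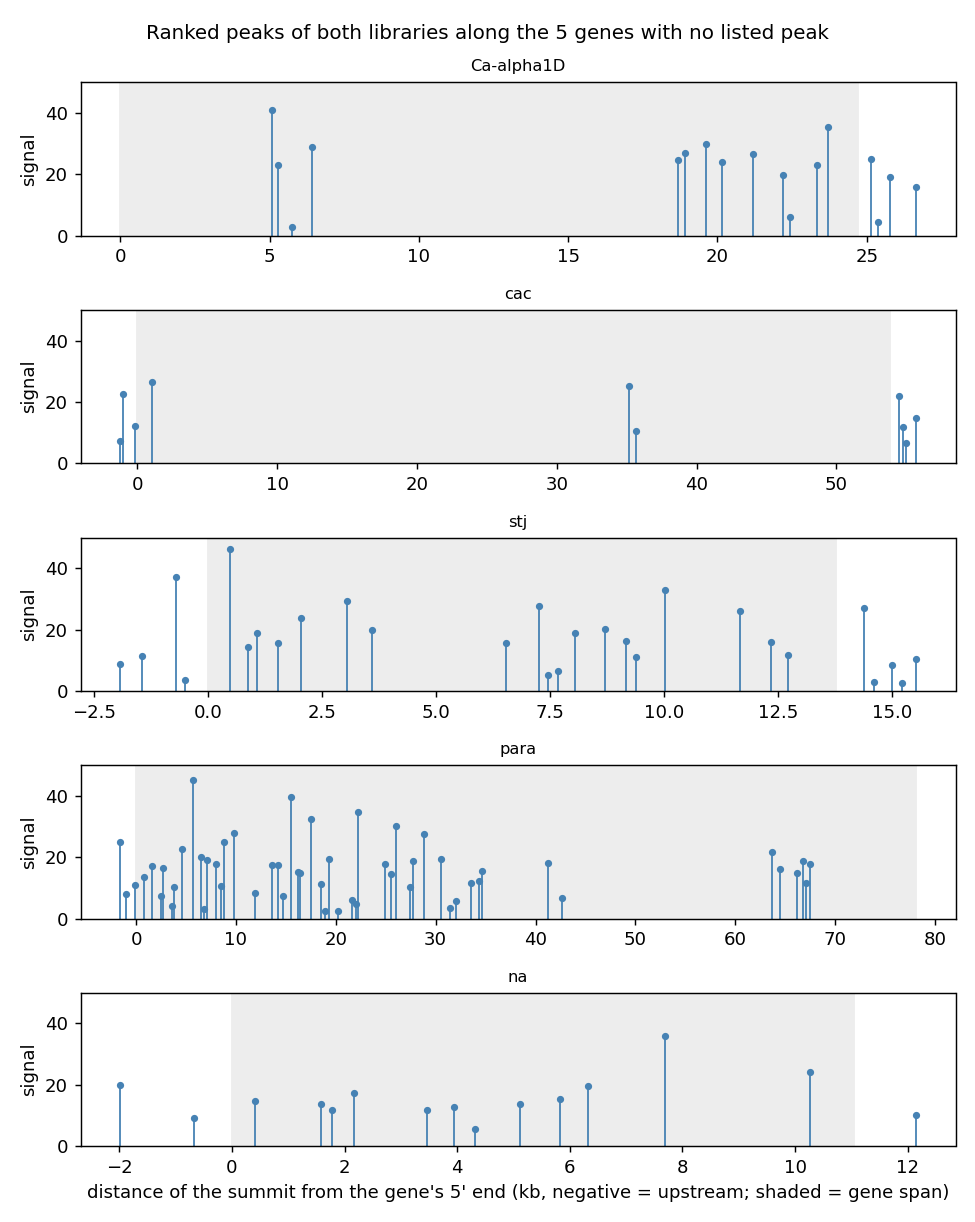
Ranked peaks of both libraries together along the 5 channel genes with no listed peak. The horizontal axis is the distance of the summit from the 5′ end in kb (gene span shaded) and the vertical axis is the signal, on a common scale to 50. The highest points are 41.1 at Ca-alpha1D, 26.6 at cac, 46.4 at stj, 45.2 at para and 35.9 at na, and long stretches of cac (34.1 kb), para (21.1 kb) and Ca-alpha1D (12.2 kb) hold no peak.

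Each replicate's own strongest peak was then located, whether or not it overlapped the strongest peak of both libraries. At Ca-alpha1T the replicates chose the same site, 1 bp apart. At stj their summits were 133 bp apart, both at the promoter, with signals of 32.9 in replicate 1 and 19.2 in replicate 2. At the other 4 genes they chose different sites. The distance was 2600 bp at na, 4229 bp at Ca-alpha1D, 14182 bp at cac and 42593 bp at para. At Ca-alpha1D replicate 1 chose a site with a signal of 24.6 at place 5367. Replicate 2 chose a site 10.6 kb from the 5′ end with a signal of 32.6 at place 2373. The place of 7157 in both libraries together belongs to another site. At na replicate 1 chose a site with a signal of 17.9 at place 18894, and replicate 2 the intron peak at place 6858. The replicate 1 choice at cac, 49.4 kb from the 5′ end with a signal of 24.3 at place 5698, had no counterpart in the ranked list of both libraries. The same was so for the replicate 2 choice at Ca-alpha1D and the replicate 1 choice at para. The replicate 2 choice at para, with a signal of 26.1, was the promoter peak, whereas the replicate 1 choice, with a signal of 22.3 at place 8200, lay 48.3 kb from the 5′ end.

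**Figure D4:**
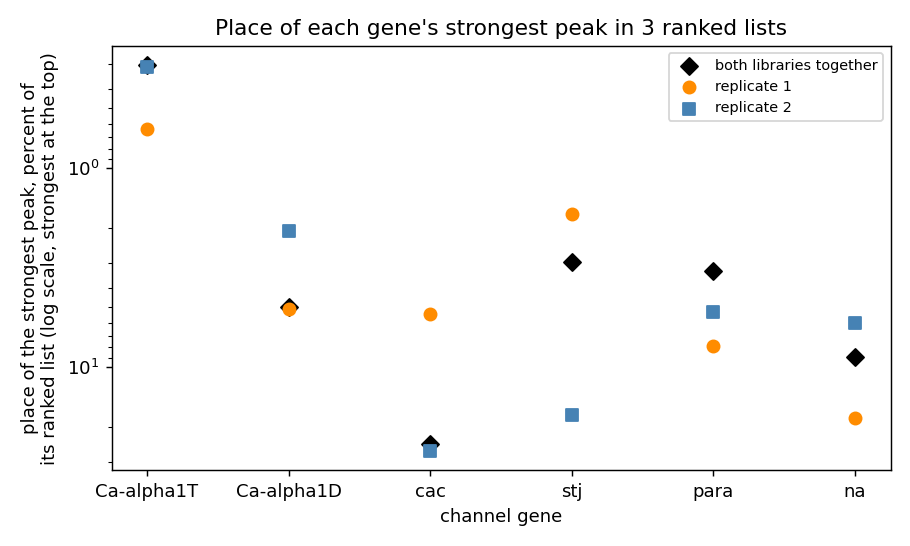
Place of each gene's strongest ranked peak as a percentage of its list (vertical axis, log scale, strongest at the top), for both libraries together, replicate 1 and replicate 2. Ca-alpha1T lies within the top 0.636% in all 3 lists, while stj is at 1.71% in replicate 1 and 17.5% in replicate 2, and cac at 5.44% in replicate 1 and 26.5% in replicate 2.

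Pooled over the 6 genes, the ranked peaks were close to the genome in median signal, with 110 of them at Ca-alpha1T. The median signal was 17.9 for the 233 member peaks and 18.1 for the 139295 ranked peaks on the arms. By gene, the median signal was 20.2 at Ca-alpha1T, 24.0 at Ca-alpha1D, 13.6 at cac, 15.9 at stj, 15.7 at para and 13.7 at na. Ca-alpha1D thus had the highest median although none of its peaks was listed, and 13 of its 17 peaks were above the median of all ranked peaks. In the replicates' own ranked lists its median was the highest in replicate 2, at 13.6. In replicate 1 it was not, at 11.9 against 12.4 at Ca-alpha1T. The strong end was thinner: 12 member peaks (5.15%) lay in the strongest 10% of all ranked peaks, 5 of them at Ca-alpha1T, and 1 (0.429%) in the strongest 1%. A −log10 IDR of 1 or more was reached by 1 member peak (0.429%), against 2.64% of all ranked peaks on the arms.

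A peak of each replicate overlapped 57.9% of the member peaks and 48.0% of all ranked peaks on the arms. By gene that share was 57.3% at Ca-alpha1T, 70.6% at Ca-alpha1D, 80.0% at cac, 67.9% at stj, 49.1% at para and 46.7% at na. The share at cac came mostly from its flanks, as 7 of the 8 such peaks lay in gd or Pdzd8. Within cac itself only the promoter peak was overlapped by a peak of each replicate. Overlap in place brought little likeness in the order of strength when peaks were pooled. Across the 135 member peaks matched in both replicates, Spearman's rho between the replicates' signals was 0.116, and across the 67586 such peaks of the whole list it was 0.176. By gene, rho was −0.0826 at Ca-alpha1T (63 peaks), 0.102 at Ca-alpha1D (12), 0.0939 at stj (19) and 0.498 at para (26). It was not computed at cac and na, which had fewer matched peaks. A replicate peak that overlapped more than 1 ranked peak was counted with each. These values describe neighbouring peaks that share libraries, and peaks are not replicates.

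By position, 62.7% of member summits lay in introns, 25.3% in coding sequence, 4.72% at promoters and 3.86% between genes. Over all ranked peaks on the arms the shares were 37.4%, 19.7%, 13.7% and 23.8%. Choosing peaks by gene span keeps the intergenic share low, and the part of gene length in the promoter share was not tested.

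Long genes can hold many peaks, so the number per 10 kb of span and flanks was compared with other genes. It was 15.7 at stj, 11.9 at Ca-alpha1T, 9.97 at na, 6.46 at para, 5.92 at Ca-alpha1D and 1.73 at cac, in falling order. The median over all protein-coding genes was 11.8, and over the 1801 genes at least as long as na it was 11.5, with 5th and 95th percentiles of 1.73 and 15.3. Among those 1801 genes, 96.4% had a lower density than stj and 5.0% had a lower density than cac. Of 285 genes as long as cac or longer, 6 had a lower density. The order was not the same in each library: per 10 kb, replicate 1 gave 10.7 at stj, 10.3 at Ca-alpha1T, 8.64 at na, 5.85 at para, 5.57 at Ca-alpha1D and 2.59 at cac. In replicate 2 the values were 13.5 at stj, 8.71 at Ca-alpha1D, 8.01 at Ca-alpha1T, 4.87 at para, 4.65 at na and 2.59 at cac. The gene stj was highest and cac lowest in both, and para kept its place, while Ca-alpha1T, Ca-alpha1D and na changed places.

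GC content moved with this density. Over the 1801 long genes, Spearman's rho between the GC content of the span with flanks and the peaks per 10 kb was 0.646, a description of genes that share the same libraries. The 6 genes had a GC content of 36.7% at cac, 38.1% at Ca-alpha1D, 39.2% at para, 42.0% at Ca-alpha1T, 43.7% at stj and 48.5% at na. When the long genes were cut into 5 bins of about equal size by GC content, the median density was 5.93 per 10 kb in the lowest bin, which ran to 39.9% GC and holds cac, Ca-alpha1D and para. It was 10.9 in the next bin, 11.6 in the one with Ca-alpha1T, 12.4 in the one with stj and 13.5 in the highest, from 44.5% GC, with na. These cuts were chosen after the values were seen. Against the median of their own bin, cac at 1.73 and na at 9.97 were lower, stj at 15.7 was higher, and Ca-alpha1T, para and Ca-alpha1D were close to it. The part of GC content in the counts of ranked peaks was not tested. Windows at the 6 genes had a median GC content of 47.0%, against 46.5% for all ranked windows and 36.0% for windows of the larger list, so the Ca-alpha1T window at 30.0% was on the low side of the listed ones.

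**Figure D5:**
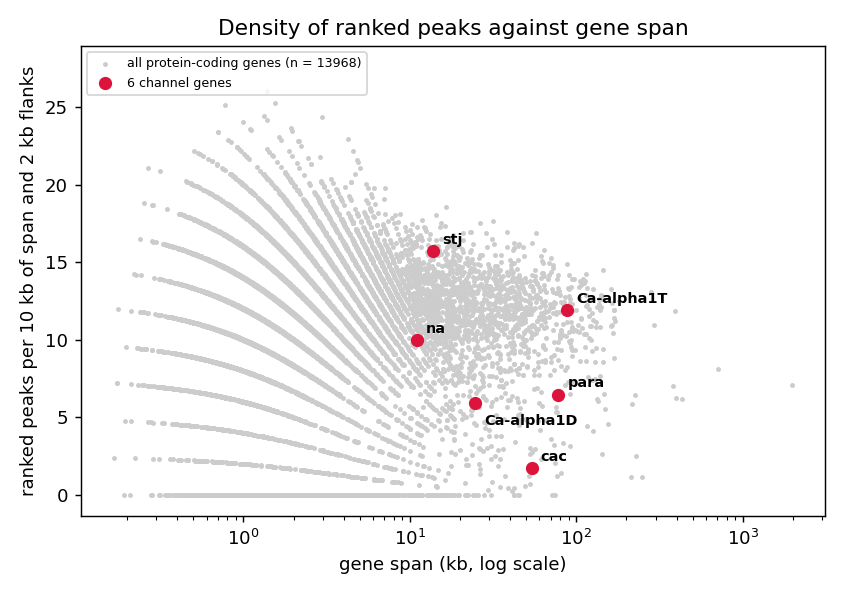
Ranked peaks of both libraries per 10 kb of gene span and 2 kb flanks (vertical axis) against gene span in kb (horizontal axis, log scale), for the 6 channel genes (large points, named) and 13968 protein-coding genes (small points). The gene stj lies near the upper edge of genes of its length at 15.7, Ca-alpha1T at 11.9 is near the middle, and cac at 1.73 is near the lower edge.

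The longest stretch without a ranked peak of both libraries was 34.1 kb in cac, 21.1 kb in para, 12.2 kb in Ca-alpha1D, 7.79 kb in Ca-alpha1T, 2.96 kb in stj and 2.58 kb in na. The replicates' own ranked peaks inside these stretches differed most in para and Ca-alpha1D. In para, replicate 1 had 10 ranked peaks there and replicate 2 had 0. In Ca-alpha1D, replicate 1 had 1 and replicate 2 had 12. In cac, replicate 1 had 0 and replicate 2 had 5. The counts were closer in the shorter stretches, with 0 in replicate 1 and 2 in replicate 2 at Ca-alpha1T, 0 and 1 at stj, and 2 in each at na. A stretch empty in the list of both libraries was therefore not always empty in each library's own list.

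The best place of each gene was set beside the genome as well. Of all protein-coding genes, 4.88% had a stronger best peak than Ca-alpha1T, 27.3% than stj, 29.9% than para, 39.5% than Ca-alpha1D, 54.9% than na and 82.6% than cac. Long genes hold more ranked peaks, and among the 1801 genes at least as long as na these shares were 10.5% for Ca-alpha1T, 57.9% for stj, 61.5% for para, 73.2% for Ca-alpha1D, 87.1% for na and 94.6% for cac. The median best place was 5940 over the 6 genes and 3085 over the long genes.

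The shares of windows with homeodomain words at the channel genes lay nearer to those of ranked windows at large than to those of listed windows. Of the 233 member windows, 232 were themselves unlisted ranked windows, so this nearness is not read as a trait of the channel genes. TAATTA stood in 23 of 233 member windows (9.87%), 9.94% of all ranked windows on the arms and 20.1% of windows of the larger list. Of those 23 windows, 15 belonged to Ca-alpha1T. The core ATTA stood in 67.8% of member windows, 73.4% of ranked windows and 90.9% of listed windows. ACAGTG stood in 9.01%, 8.16% and 21.9%, and TAATTG in 15.0%, 15.6% and 19.1%, in the same order. The shares were 22.7%, 23.1% and 23.9% for GAGAG, 11.6%, 10.7% and 8.79% for CAGCTG, and 9.44%, 9.66% and 17.2% for TGATAA. The remaining 3 words stood in at most 2 member windows each: CAGGTAG in 0.858% of member, 1.24% of ranked and 0.692% of listed windows, TATCGATA in 0.429%, 0.372% and 1.66%, and GTCACACT in 0.858%, 0.416% and 1.04%.

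The other genes of these channels, taken from a list of 13 names that matched 12 genes, gave a similar count. They comprise calcium channel auxiliary subunits, the second sodium channel gene NaCP60E with the tipE and Teh auxiliary subunits, and partners of the na channel. Of the 12, 1 had a peak of the larger list, against 13.1% of all protein-coding genes. That gene was NaCP60E, whose strongest peak had a signal of 78.9 at place 1020 and a −log10 IDR of 2.67. Its summit, at 24903979, lay inside the gene (chr2R:24891614-24921677, plus strand) and not at the 5′ end. An annotated transcript start lay within 500 bp, and whether that start belongs to NaCP60E was not examined. The peak was at place 863 in replicate 1 with a signal of 46.7, where it was listed. In replicate 2 it was at place 2889 with a signal of 30.9 and was not listed. The Ca-alpha1T peak, in contrast, was in both replicates' lists. Including Mid1, matched from the name Nlf-1 among the partners of the na channel, 2 of the 12 met the list of replicate 1 and 0 met that of replicate 2, against 8.13% and 8.73% of all protein-coding genes. The Mid1 peak lay in coding sequence, with a signal of 37.5 at place 10651 and a −log10 IDR of 1.18 in both libraries together.

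Of the 323 ranked peaks at these 12 genes, 2 met the larger list, against 1.12% of all ranked peaks. Both lay inside NaCP60E and overlapped each other, and the weaker one had a signal of 3.61 at place 136999. The strongest peak of the 11 genes with any ranked peak stood between place 1020 (NaCP60E) and place 12414 (Teh4), a span that takes in Ca-alpha1D, stj and para but neither Ca-alpha1T, which stood higher, nor na and cac, which stood lower. Ca-beta, the calcium channel beta subunit, had 65 ranked peaks, the strongest in an intron with a signal of 58.1 at place 1931, and its highest −log10 IDR was 1.66. Teh3 lies within the span of Teh2 on the same strand. The 2 genes shared a strongest peak, in Teh2 and in the flank of Teh3, with a signal of 61.3 at place 1695 and a −log10 IDR of 1.27. The highest value at Ca-beta and that of this shared peak came closer to the limit of 2 than any unlisted peak at the 6 genes, where the highest was 0.962. So did the highest values at Mid1, 1.18, and at Ca-Ma2d, 1.09, a calcium channel auxiliary gene matched from the name Ma2d. The gene stol, an alpha2delta gene like stj, had 0 ranked peaks of both libraries over 74.1 kb at 39.7% GC, although replicate 1 alone had 9 and replicate 2 had 0.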

How the data were processed

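The deposited files are peak lists in the narrowPeak layout, in dm6 coordinates per the labels. Each of the 2 libraries has a ranked and a thresholded list, and both libraries together have 2 such pairs. The aligner and peak caller that made them are not named in the sources used here. Per the deposited files, the score is scaled from the IDR to at most 1000. The signal is the authors' own value of unknown scale, and it was used to order peaks within 1 list only. The −log10 IDR values and the summit offsets (another number, in bases) are the authors' too. No read counts were used and depth is unknown, so no interval is given.

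The members and the word and gene lists were chosen with earlier results of these data known. Genes came from Ensembl release 115. No peak ran past the end of its chromosome in the release 6 reference. A peak was assigned to a gene where its summit lay in the span or within 2 kb. A promoter is 500 bp on either side of a transcript start. A ranked peak was listed where it overlapped a thresholded peak by at least 1 bp. Replicate values are those of the strongest overlapping peak in that replicate's own ranked list. All 6 genes were named, neighbours of their strongest peaks too, and other channel genes were counted together and named where listed. Ca-beta, Ca-Ma2d, Teh2, Teh3, Teh4, stol and the genes at other summits were chosen after their values were seen. Of 13 listed names, 3 matched through a synonym, and CG4587 and stol are 1 gene. With 1 group and no control library no test was run and no p-value is given. Alternatives were the flank, the thresholded list, the overlap rule, thinning of close summits and each replicate alone. Counting was tested on simulated data. Python 3.11.15, NumPy 2.4.6, pandas 2.3.3, SciPy 1.17.1 and matplotlib 3.10.9 were used.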

Additional observations from a re-analysis of the deposited data

How the results depend on the processing

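With the gene span alone, without flanks, 0 listed peaks and 0 of the 6 genes with a listed peak were left, since the Ca-alpha1T peak lies 904 bp outside the span. Both counts stayed at 1 with flanks of 5 kb, the conservative list or either replicate alone. Other settings could not have changed the counts. The top 50% of the larger list by signal had to hold the Ca-alpha1T peak, at place 414 of 1500. An IDR of 0.01 or less had to keep it, at a −log10 IDR of 3.40, and add none, as unlisted peaks reached at most 0.962. The peak was identical in the larger list, so asking for the summit inside or an overlap of 50% had to keep it too. Leaving out peaks within 150 bp of a stronger one removed none of the 233 ranked peaks, so it could not change the counts. The ranked peaks at the genes numbered 233, against 201 without flanks, 265 with flanks of 5 kb, and 206 and 185 without replicate 2 and without replicate 1. The median best place was 5940, against 7043 without flanks, and 5532.5 and 6457.5 with 1 replicate left out. The places of single genes moved more: cac stood at place 34745, against 17322 with flanks of 5 kb and 5698 in replicate 1 alone. No paired analysis was possible because the design has 1 group. The −log10 IDR limits what is called, depth is unknown, and no control library was analysed here.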
